A study of Mus musculus with 5 samples.

Results

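The cyclins, the cyclin-dependent kinases (Cdks) and the Cdk inhibitors form the core of the cell cycle engine, and their transcripts were read here in hearts of mouse embryos. The group comprised 56 of the 23279 genes that a probe set with a single symbol named on the array (56 of 24479 probe sets, 1 for each gene). Membership was decided by gene symbol alone: Ccn followed by a lower-case letter, Cdk followed only by digits, or a start of Cdkn1 or Cdkn2, with Cdkn1c set aside. The rule uses no measured value of a gene, though the group was proposed with earlier results of these data known. Hearts were taken at the E10.5 stage as 3 samples labelled Control and 2 labelled KO, and per the labels none was treated. The title of the series names LRRFIP2 as a modulator of the hypoxia response. The labels state neither the strain, the knocked-out allele, any Cre or promoter, the genotype of the controls, the sex, nor whether a sample was 1 heart or a pool. The p-values therefore measure only the spread between these 5 samples, which may be technical. Since each sample is an extract of mixed cells, given as heart, fewer cells of a type and less RNA per cell cannot be told apart. Liver and gut endoderm markers were high on knockout replicate 2, as given below.

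Cyclins are proteins that switch on a Cdk by binding to it. D cyclins with Cdk4 or Cdk6, then E cyclins with Cdk2, carry a cell from G1 into S phase by inactivating the retinoblastoma protein and freeing the E2F factors; A and B cyclins with Cdk2 and Cdk1 take it through S phase and mitosis. Inhibitors of the Cip/Kip family (Cdkn1 genes) and of the Ink4 family (Cdkn2 genes) hold the kinases back. Many further cyclins and Cdks act in transcription instead. In the embryonic heart, muscle cells still divide while they contract, and D cyclins are among the genes on which their expansion depends.

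Values are log2 expression levels of 1 probe set, as deposited, and differences are the knockout mean minus the control mean on that scale. Levels of different probe sets are not comparable with each other. Of the 56 members, 51 were above the dim level of 4.44, the 40th percentile of all gene means over the 5 arrays, and were tested with limma among 13967 genes. Lrrfip2, the gene named in the title, had levels of 7.33, 8.07 and 8.08 on the control arrays and 6.36 and 6.22 on the knockout arrays, without overlap (-1.54 ± 0.28 SE, limma adjusted p = 0.355); which part of the gene was deleted is not stated in the labels. The array medians lay between 5.07 and 5.11. All 12 heart muscle markers measured were above the dim level. Their mean level was 11.40 to 11.42 in controls, 11.39 on knockout replicate 1 and 11.24 on knockout replicate 2. On knockout replicate 2, 10 of the 12 lay below all 3 controls (28.2% of all genes did) and 1 lay above them. For knockout replicate 1 these numbers were 6 (33.9% of all genes) and 4. Pairs of arrays correlated between 0.986 and 0.996 over all probe sets, and the knockout pair had the lowest value. On knockout replicate 2, all 20 liver and gut endoderm markers exceeded the 3 controls, with a mean level of 7.43 against 4.26 to 4.28 in controls and 4.22 on knockout replicate 1. On knockout replicate 1, 10 of 17 markers of macrophages and other leukocytes did, with a mean level of 5.40 against 4.85 to 4.94 in controls and 4.83 on knockout replicate 2; Adgre1 and Cd14 stayed dim on every array. Endothelial markers above all controls numbered 8 of 12 on knockout replicate 1 and 4 on knockout replicate 2, and epicardial ones 3 and 6 of 9. Of all genes tested, 26.6% lay above all 3 controls on knockout replicate 1 and 21.6% on knockout replicate 2. Below all controls on knockout replicates 1 and 2 lay 2 and 5 leukocyte, 2 and 3 endothelial, and 2 and 2 epicardial markers. Markers of primitive red cells had mean levels of 7.43, 6.80 and 8.27 in controls and 6.76 and 6.95 in the knockout, and Y-linked genes had a mean level of 7.02 on control replicate 1 against 2.72 to 2.99 elsewhere. The part of these markers in the results below was not tested.

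No member passed an adjusted p of 0.05 over all genes in limma, nor did any other gene (0 of 13967, 0%; the smallest adjusted p was 0.287). At an unadjusted p under 0.05 stood 6 members (11.8% of the 51, against 8.78% of all genes tested): 4 were lower in the knockout (7.84% against 5.49%) and 2 were higher (3.92% against 3.29%). The lower ones were Ccng1, Cdkn2c, Ccne2 and Ccnd2, and the higher ones were Ccng2 and Cdk8. After the values were quantile normalized again the split was 2 lower (3.92% against 4.85%) and 2 higher (3.92% against 3.83%). With each array centred on its median it was 4 lower (7.84% against 6.2%) and 1 higher (1.96% against 3.14%). Without knockout replicate 1 it was 3 lower (5.88% against 9.65%) and 4 higher (7.84% against 7.3%), and without knockout replicate 2 it was 11 lower (21.6% against 14.6%) and 9 higher (17.6% against 12.7%). The members' share of lower calls was thus below that of all genes in 2 of these fits. Cdkn2c passed the filter on dim genes through the controls alone. Without it, 3 of 50 members were lower at that p in the fit of all arrays (6%, near the 5.49% of all genes). Lower without overlap were then 9 of the 50, against 13.1% of all genes. For 10 members both knockout values lay below all 3 controls (19.6%, against 13.1% of all genes), and for 5 both lay above them (9.8% against 8.18%). In all, 32 tested members were lower (62.7%, against 54.4% of all genes), 18 were higher and Cdkn2a had no difference, with a median difference of -0.039 against -0.015 over all genes. The median was 0 without knockout replicate 1 and -0.087 without knockout replicate 2. None of these shares was tested against that of all genes.

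**Figure D1:**
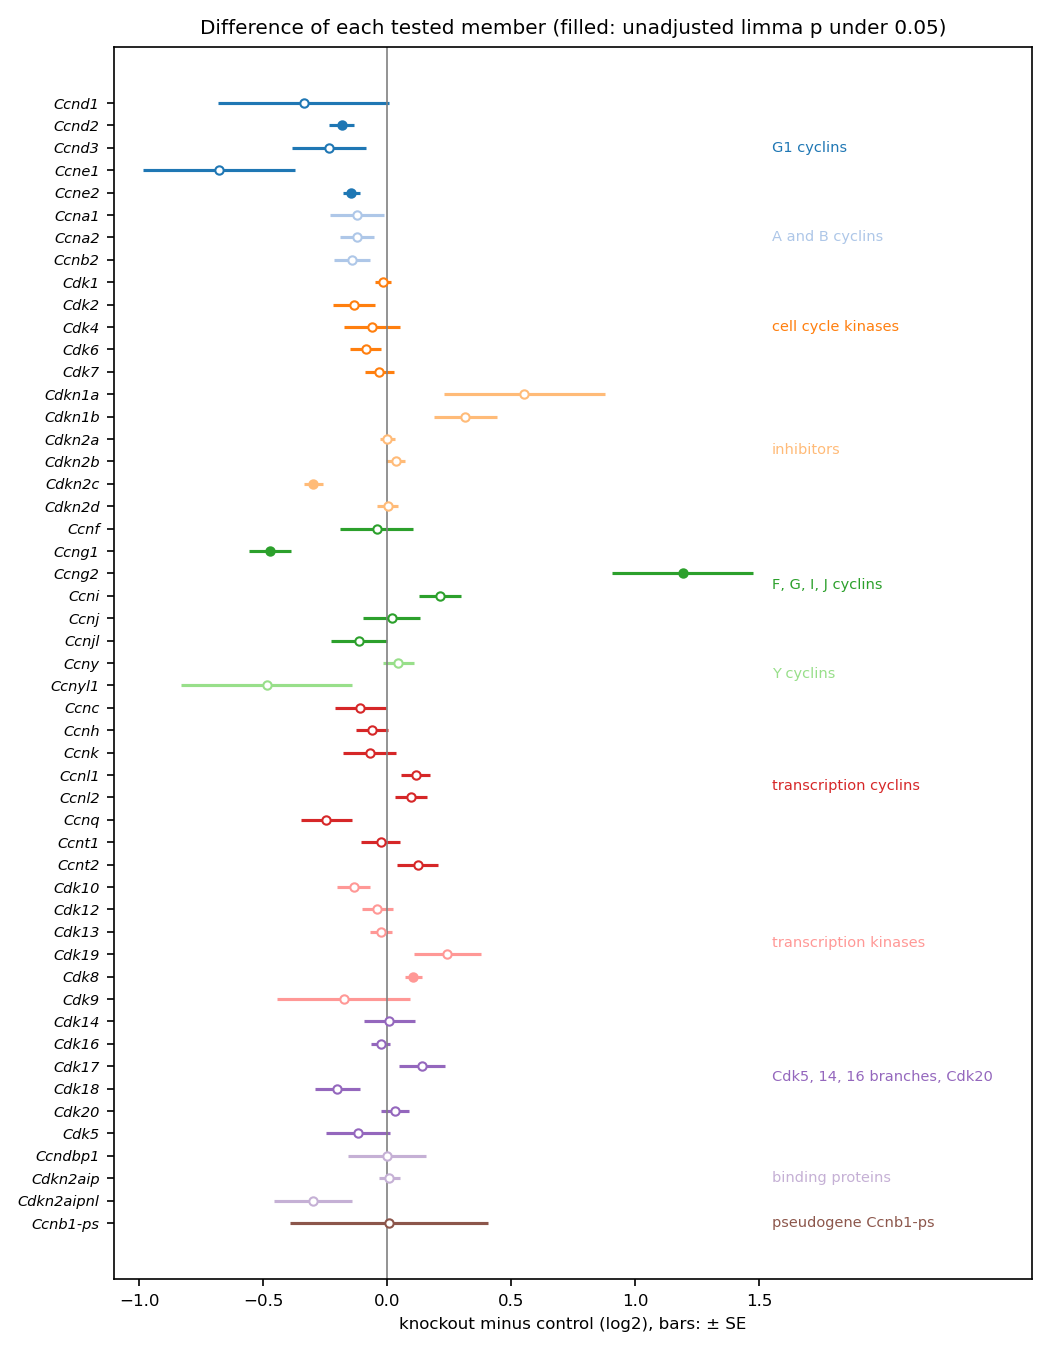
Difference of each of the 51 tested members, knockout minus control on the log2 scale, grouped by role; bars are the standard error from limma, and filled points have an unadjusted p under 0.05. All 5 G1 cyclins lie left of 0, Ccng1 and Ccng2 lie on opposite sides of it, and 3 members differ by more than 0.5.

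The cyclin G genes stood on opposite sides of the controls. Cyclin G1, made from a gene that p53 activates, has a role in the recovery from DNA damage, and cyclin G2, made from a gene under control of FOXO factors, is linked to arrest of the cycle. Ccng1 had levels of 9.58, 9.58 and 9.59 on the control arrays and 9.24 and 8.99 on the knockout arrays. Both knockout values were far below the narrow control range. The difference of -0.47 ± 0.086 SE amounts to 1.39-fold (unadjusted limma p of 0.00509, adjusted p = 0.355). Its p stayed under 0.05 in all 12 alternative fits (1.02e-04 to 0.0254), with adjusted values of 0.0285, without knockout replicate 2, to 0.757. Ccng2 had levels of 7.18, 7.07 and 6.86 on the control arrays and 8.64 and 7.82 on the knockout arrays. Both knockout arrays were above every control, knockout replicate 1 by more. The difference of 1.19 ± 0.28 SE, or 2.29-fold, was the greatest in size of any tested member (unadjusted limma p of 0.0134, adjusted p = 0.434). It was 0.78 without knockout replicate 1 and 1.60 without knockout replicate 2, and the unadjusted p was 0.0547 without control replicate 3; adjusted values over the alternatives ran from 0.0507 to 0.757. Cyclin I, made by Ccni, is related in sequence to the G cyclins. Its gene had levels of 10.53, 10.40 and 10.29 in controls and 10.65 and 10.60 in the knockout, without overlap (0.21 ± 0.084 SE, limma adjusted p = 0.570).

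To show what sequence lies before Ccng1, Ccng2, Ccne1 and Cdkn1a, members with wide differences between the groups or between the knockout arrays, and before Cdk1, which hardly varied, their promoters are printed from RefSeq, build GRCm38.p6, from 250 bases before to 50 after the annotated start of the transcript. Capitals mark matches, on either strand, to any of 4 motifs: the core bound by hypoxia-inducible factors (HIF), ACGTG or GCGTG, where ACGTG overlaps the E-box CACGTG; the CCAAT box; the cell cycle homology region TTTGAA; and the E2F motif TTTCCCGC, TTTCGCGC, TTTGCCGC or TTTGGCGC. The G1 cyclin genes Ccnd1, Ccnd2 and Ccne2 are among 11 members with no entry in the promoter set used. They are not shown, and the shares of motifs below leave these 11 out. Cdkn1a has 2 annotated starts; the downstream one is shown, and the window of the other held 0 matches.
Ccng1 promoter, chr11:40755237-40755536, strand -: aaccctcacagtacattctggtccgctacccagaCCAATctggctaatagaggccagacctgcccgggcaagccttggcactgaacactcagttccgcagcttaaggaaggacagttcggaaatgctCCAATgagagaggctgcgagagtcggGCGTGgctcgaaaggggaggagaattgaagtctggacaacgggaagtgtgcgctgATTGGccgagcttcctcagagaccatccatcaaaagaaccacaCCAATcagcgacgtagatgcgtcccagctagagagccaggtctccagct
Ccng2 promoter, chr5:93267323-93267622, strand +: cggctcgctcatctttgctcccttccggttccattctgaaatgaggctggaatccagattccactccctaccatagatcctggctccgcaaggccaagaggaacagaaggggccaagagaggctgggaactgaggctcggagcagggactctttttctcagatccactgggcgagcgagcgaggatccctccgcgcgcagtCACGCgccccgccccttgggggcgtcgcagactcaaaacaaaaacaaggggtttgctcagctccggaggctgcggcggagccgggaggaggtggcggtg
Ccne1 promoter, chr7:38107441-38107740, strand -: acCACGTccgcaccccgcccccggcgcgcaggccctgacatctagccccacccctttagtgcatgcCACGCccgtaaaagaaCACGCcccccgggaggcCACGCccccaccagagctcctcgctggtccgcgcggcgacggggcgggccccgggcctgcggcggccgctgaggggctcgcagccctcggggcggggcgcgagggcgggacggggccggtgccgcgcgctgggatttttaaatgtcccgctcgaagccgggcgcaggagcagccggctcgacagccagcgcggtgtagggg
Cdkn1a promoter, chr17:29093519-29093818, strand +: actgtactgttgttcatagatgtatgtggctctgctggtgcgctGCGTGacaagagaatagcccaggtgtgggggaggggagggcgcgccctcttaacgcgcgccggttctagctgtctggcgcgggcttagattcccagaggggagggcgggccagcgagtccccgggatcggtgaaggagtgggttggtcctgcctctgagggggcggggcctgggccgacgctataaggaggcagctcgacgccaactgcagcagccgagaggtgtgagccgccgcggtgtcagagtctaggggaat
Cdk1 promoter, chr10:69352863-69353162, strand -: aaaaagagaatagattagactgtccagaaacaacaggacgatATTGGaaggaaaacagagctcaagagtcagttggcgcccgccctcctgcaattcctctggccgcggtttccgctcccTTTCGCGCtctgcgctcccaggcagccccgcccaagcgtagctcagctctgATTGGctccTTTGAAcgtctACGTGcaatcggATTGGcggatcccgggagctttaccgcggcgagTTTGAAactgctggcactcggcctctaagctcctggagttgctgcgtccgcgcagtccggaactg
The Ccng1 window held 4 CCAAT boxes and 1 HIF core, and that of Ccng2 held 1 HIF core, 49 bases before the start. The Ccne1 window held 4 HIF cores and the Cdkn1a window shown held 1. The window of Cdk1, the mitotic kinase, held all 4 kinds, with 1 E2F motif, 2 cell cycle homology regions, 3 CCAAT boxes and 1 HIF core. Promoter sequences were matched for 45 of the 56 members (50 starts). The HIF core was in 80% of these starts, against 60.1% of the starts of all tested genes and 43.8% of all 32851 starts. The CCAAT box was in 46% (37.3% and 37.4%), the cell cycle homology region in 12% (12.2% and 17.9%) and the E2F motif in 6% (3.84% and 2.26%). These matches describe the letters of a short window and say nothing of binding.

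The 5 G1 cyclins were all lower in the knockout mean, with a median of -0.23, and 3 of them were below the controls on both arrays. Of all genes tested, 54.4% were lower and 13.1% were below the controls on both arrays. The difference from these shares was not tested. Cyclin E2 partners Cdk2 at the entry to S phase. Ccne2 had levels of 8.66, 8.68 and 8.66 in controls and 8.54 and 8.50 in the knockout. Both knockout values were below the controls by a small step of like size (-0.14 ± 0.035 SE, unadjusted limma p of 0.0133, adjusted p = 0.434). The unadjusted p was 0.0510 after quantile normalization again. Ccnd2, which encodes another D cyclin, had levels of 10.26, 10.30 and 10.38 in controls and 10.12 and 10.14 in the knockout. The groups did not overlap, and the difference was -0.18 ± 0.051 SE (unadjusted limma p of 0.0225, adjusted p = 0.491). The unadjusted p lay between 0.0579 and 0.0865 with array weights, after quantile normalization again, and without control replicate 2 or either knockout array.

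In the other G1 cyclins the knockout arrays differed from each other. Ccne1, for the second E cyclin, had levels of 7.84, 7.70 and 7.92 in controls and 6.68 and 7.60 in the knockout. Knockout replicate 1 was well below the controls and knockout replicate 2 just below them (-0.68 ± 0.31 SE, limma adjusted p = 0.570). The difference was -0.21 without knockout replicate 1 and -1.14 without knockout replicate 2. Ccnd1 had levels of 9.16, 9.03 and 8.99 in controls and 8.20 and 9.25 in the knockout. Here the knockout arrays lay on opposite sides of the controls, so that the mean difference of -0.34 ± 0.34 SE (limma adjusted p = 0.672) became 0.19 without knockout replicate 1 and -0.86 without knockout replicate 2. Ccnd3 had levels of 7.83, 7.94 and 7.65 in controls and 7.40 and 7.75 in the knockout, with only knockout replicate 1 outside the control range (-0.23 ± 0.15 SE, limma adjusted p = 0.570; -0.061 and -0.41 without knockout replicates 1 and 2). The median shift of the 5 genes from the control mean was -0.41 on knockout replicate 1 and -0.17 on knockout replicate 2, and 0.020, -0.014 and -0.0091 on the controls.

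**Figure D2:**
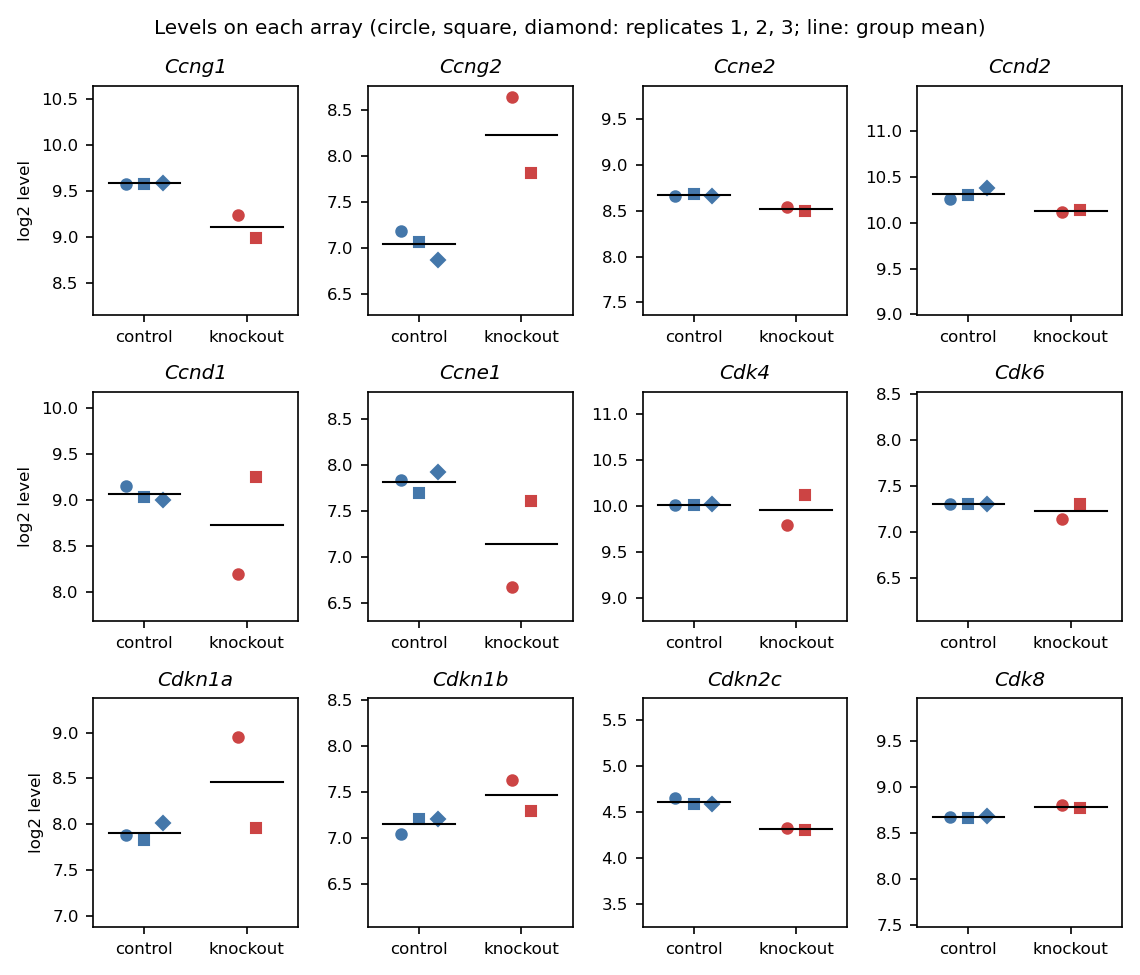
Log2 level of 12 members on each array, with control arrays in blue and knockout arrays in red; the horizontal line is the group mean, symbols are replicates, and each panel spans the same range of 2.5 units. Ccng1, Ccng2, Ccne1, Ccne2, Ccnd2, Cdkn1b, Cdkn2c and Cdk8 have no overlap between the groups. Cdk6 and Cdkn1a are set apart on knockout replicate 1 alone. In Ccnd1 and Cdk4 the knockout arrays lie on opposite sides of the controls.

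The kinases that these cyclins activate had small differences. Cdk4 had levels of 10.01, 10.01 and 10.03 in controls and 9.79 and 10.12 in the knockout. As with its partner Ccnd1, knockout replicate 1 was below all controls and knockout replicate 2 above them (-0.060 ± 0.11 SE, limma adjusted p = 0.820). Cdk6, the other partner of the D cyclins, had 1 value of 7.31 on all 3 controls and on knockout replicate 2, and 7.14 on knockout replicate 1 (-0.086 ± 0.063 SE, limma adjusted p = 0.578). Cdk2 was at 7.77, 7.72 and 7.72 in controls and at 7.48 and 7.72 in the knockout, again lower only on knockout replicate 1 (-0.14 ± 0.084 SE, limma adjusted p = 0.570; -0.015 and -0.26 without knockout replicates 1 and 2). Cdk1 stood at 10.18, 10.20 and 10.18 in controls and at 10.15 and 10.18 in the knockout, a difference of -0.018 ± 0.032 SE (limma adjusted p = 0.806) that turned to 0.034 after quantile normalization again. Cdk7, which activates other Cdks by phosphorylation, differed by -0.031 ± 0.058 SE (limma adjusted p = 0.818). In a limma fit without knockout replicate 2, Cdk4 (-0.23, adjusted p = 0.0358) and Cdk6 (-0.17, adjusted p = 0.0392) were among 6 members (11.8%) and 1011 of all genes (7.24%) that passed; there the single remaining knockout array is assumed to vary like the controls. Since the 3 Cdk6 controls had 1 value, its p in that fit rests only on the spread limma borrows from all genes. Without knockout replicate 1, Cdk4 was at 0.11.

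Among the inhibitors, both Cip/Kip members were higher in the knockout mean and 1 of 4 Ink4 members was lower. Cdkn1a encodes p21, which stops the cycle downstream of p53. It had levels of 7.88, 7.82 and 8.01 in controls and 8.95 and 7.96 in the knockout. Only knockout replicate 1 was above the controls, and knockout replicate 2 lay within their range (0.55 ± 0.32 SE, limma adjusted p = 0.570). Without knockout replicate 2 the difference was 1.05 (adjusted p = 0.0460), and without knockout replicate 1 it was 0.058. Cdkn1b encodes p27, a brake held in many resting cells. It had levels of 7.05, 7.20 and 7.20 in controls and 7.63 and 7.30 in the knockout, without overlap (0.31 ± 0.13 SE, limma adjusted p = 0.570; 0.15 and 0.48 without knockout replicates 1 and 2). Cdkn2c encodes an Ink4 inhibitor of Cdk4 and Cdk6. Its levels of 4.65, 4.59 and 4.59 in controls and 4.32 and 4.30 in the knockout did not overlap, and both knockout values were under the dim level of 4.44. The difference was -0.30 ± 0.037 SE. Because the gene was tested through its control values alone, its p in that fit (unadjusted 0.00128, adjusted p = 0.337 in limma) is given as a description; in the fit of all genes with no filter the adjusted p was 0.449.

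The remaining Ink4 genes gave little to compare. Cdkn2a, whose locus also encodes Arf, had the same value of 4.68 on all 5 arrays. Cdkn2b was at 5.29 on 4 arrays and at 5.36 on knockout replicate 1 (0.035 ± 0.038 SE, limma adjusted p = 0.688). Cdkn2d was at 6.90, 6.86 and 6.81 in controls and at 6.86 on both knockout arrays (0.0027 ± 0.042 SE, limma adjusted p = 0.994); the sign of its difference turned with array weights, centring or without control replicate 3. Equal values on several arrays are common in this table: 24 of the 51 tested members (47.1%) had at least 1 tie, against 54.8% of all genes tested.

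The 3 tested cyclins of S phase and mitosis were lower in the knockout mean, with a median of -0.12. Cyclin A2 works with Cdk2 and Cdk1 from S phase to early mitosis. Ccna2 had levels of 9.87, 9.90 and 10.004 in controls and 9.74 and 9.87 in the knockout (-0.12 ± 0.068 SE, limma adjusted p = 0.570; -0.058 and -0.18 without knockout replicates 1 and 2). Ccnb2, a mitotic partner of Cdk1, had levels of 9.19, 9.33 and 9.14 in controls and 9.10 and 9.06 in the knockout (-0.14 ± 0.072 SE, limma adjusted p = 0.570). For both genes the groups did not overlap, yet the highest knockout value lay close to the lowest control. Ccna1, mainly of the germ line, was near the dim level with 4.70, 4.99 and 4.73 in controls and 4.66 and 4.72 in the knockout (-0.12 ± 0.11 SE, limma adjusted p = 0.636). No probe set with the symbol Ccnb1 was used here. The probe set of its transcribed pseudogene Ccnb1-ps ranged from 5.96 to 7.11 over the controls and was at 6.52 and 6.33 in the knockout (0.0081 ± 0.40 SE). Signal of a pseudogene and of its parent gene cannot be told apart in this table.

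Among cyclins and kinases of transcription, Cdk8 was the member with the smallest p. Cdk8 and its paralogue Cdk19 are alternative kinases of the Mediator complex, with cyclin C as partner. Cdk8 had levels of 8.68, 8.67 and 8.69 in controls and 8.80 and 8.77 in the knockout. The groups did not overlap, but the step was small, at 0.11 ± 0.033 SE (unadjusted limma p of 0.0315, adjusted p = 0.521). The unadjusted p was 0.163 with arrays centred on their medians, 0.0725 after quantile normalization again, 0.0522 with array weights, and 0.0696 and 0.0737 without control replicates 1 and 2. Cdk19 was at 6.45 to 6.57 in controls and at 6.96 and 6.57 in the knockout (0.24 ± 0.14 SE, limma adjusted p = 0.570). Their partner Ccnc was at 7.02, 6.76 and 6.76 in controls and at 6.76 and 6.71 in the knockout (-0.11 ± 0.10 SE, limma adjusted p = 0.647). Of the 6 kinases of this role 1 had an unadjusted p under 0.05, and of the 8 cyclins 0 did, with medians of -0.032 and -0.044.

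The elongation factor P-TEFb consists of Cdk9 and a T cyclin. Cdk9 was among the more variable members, with 6.49, 7.05 and 7.09 in controls and 6.46 and 6.95 in the knockout (-0.18 ± 0.27 SE, limma adjusted p = 0.775). Ccnt1 (-0.026) and Ccnt2 (0.12) did not reach an unadjusted p of 0.05. The kinases Cdk12 (-0.039) and Cdk13 (-0.025) and their partner Ccnk (-0.070) were close to 0, as was Ccnh (-0.061), the partner of Cdk7. Ccnq and its kinase Cdk10 were both lower without overlap. Ccnq was at 9.07, 9.08 and 8.82 in controls and at 8.69 and 8.80 in the knockout (-0.24 ± 0.10 SE, limma adjusted p = 0.570). Cdk10 was at 7.13, 7.22 and 7.05 in controls and at 6.97 and 7.03 in the knockout (-0.14 ± 0.065 SE, limma adjusted p = 0.570). The L cyclins, which act in splicing, differed by 0.12 ± 0.059 SE, without overlap, for Ccnl1 and by 0.095 ± 0.065 SE for Ccnl2.

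The remaining members have varied roles. Ccnf encodes the F-box protein of a ubiquitin ligase that degrades cell cycle proteins, and it was at 7.70, 7.70 and 7.69 in controls and at 7.43 and 7.88 in the knockout. Its knockout arrays again lay on either side of the controls, and the mean difference was -0.042 ± 0.15 SE (0.18 and -0.27 without knockout replicates 1 and 2). Cyclin Y and its relative Ccnyl1 bring Cdk14 to the cell membrane, where it phosphorylates a Wnt receptor. Ccnyl1 was at 7.72, 7.44 and 6.69 in controls and at 6.74 and 6.85 in the knockout, so the controls themselves spanned more than the difference (-0.49 ± 0.34 SE, limma adjusted p = 0.574). Ccny (0.045) and Cdk14 (0.0094) hardly differed. Cdk5, known from neurons, and Cdk16, Cdk17 and Cdk18 lay between -0.20 and 0.14, each with overlap and an adjusted p of 0.570 or more. Cdkn2aipnl, related to a protein that binds Arf, was at 7.92, 7.94 and 7.90 in controls and at 7.38 and 7.86 in the knockout (-0.30 ± 0.16 SE, limma adjusted p = 0.570). Without knockout replicate 2 the adjusted p of Ccnf was 0.0304 and that of Cdkn2aipnl, at -0.54, was 0.0279; without knockout replicate 1 the difference of Cdkn2aipnl was -0.060. The remaining tested members, Ccnj (0.018) and Ccnjl (-0.11) of the J cyclins, Cdk20 (0.032), Ccndbp1 (-0.0019) and Cdkn2aip (0.0087), all overlapped between the groups. The 5 members under the dim level, Cdk3, Cdk15, Ccnb3, Ccno and Ccnb1ip1, had levels between 2.86 and 4.23 on every array and were not tested; RefSeq lists Cdk3 of the mouse as a transcribed pseudogene.

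**Figure D3:**
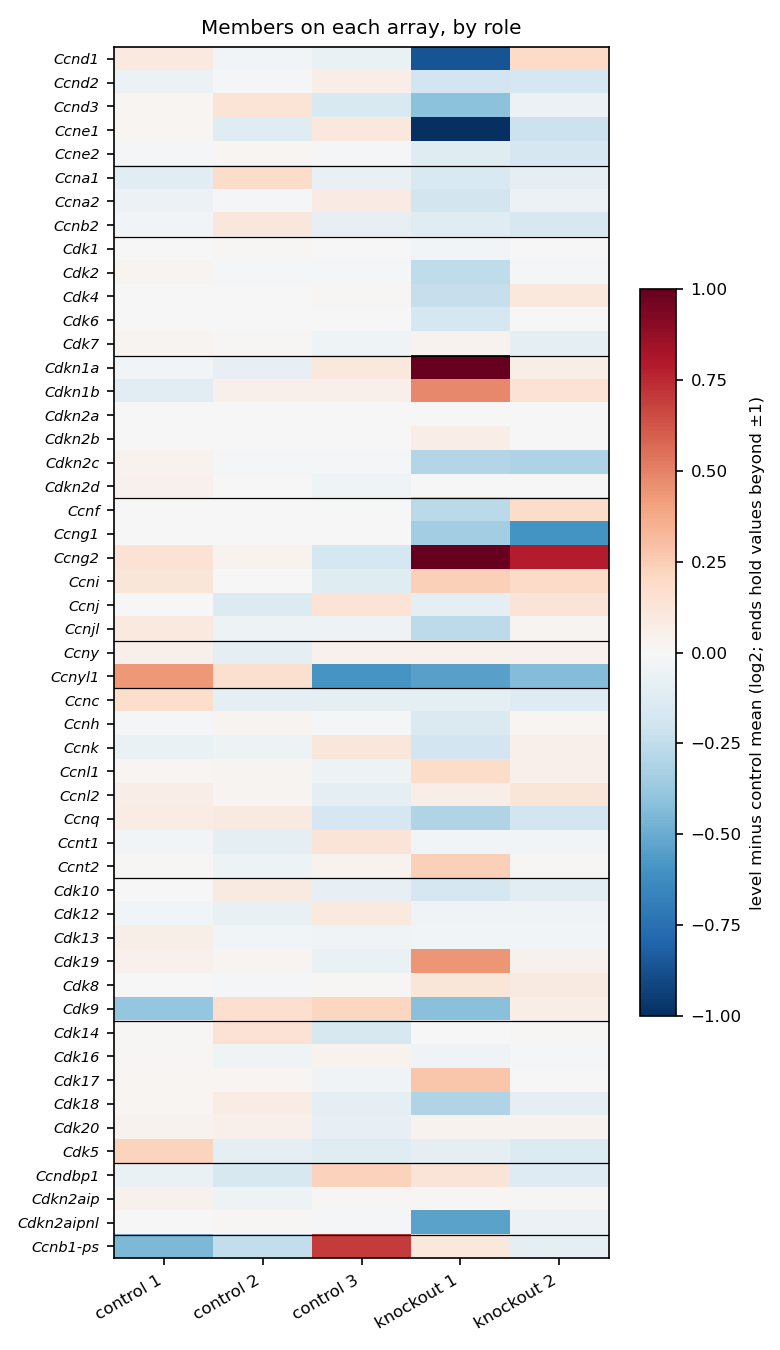
Level of each tested member on each of the 5 arrays minus its control mean, on the log2 scale, with rows grouped by role and colours held at the ends beyond 1 unit. Knockout replicate 1 carries the deepest colours, in Ccnd1, Ccne1, Cdkn1a and Ccng2, and only part of them recur on knockout replicate 2.

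The knockout arrays differed most from each other in 4 members. The gap between them was 1.06 for Ccnd1, 0.99 for Cdkn1a, 0.93 for Ccne1 and 0.82 for Ccng2, while the 3 controls spanned 0.16, 0.19, 0.23 and 0.32 for these genes. Gaps wider than these were found in 1.78%, 2.05%, 2.51% and 3.53% of all genes tested. Over all tested members the median gap was 0.13, against 0.15 over all genes. Knockout replicate 1 was below all 3 controls for 23 members (45.1%, against 33.9% of all genes) and above them for 11 (21.6% against 26.6%). Knockout replicate 2 was below them for 13 (25.5% against 28.2%) and above them for 9 (17.6% against 21.6%). For 4 members, Ccnd1, Ccnf, Cdk4 and Cdk7, the knockout arrays lay outside the controls on opposite sides (7.84% against 11.5%). Of these, Cdk7 alone was higher on knockout replicate 1 than on knockout replicate 2. As given above, leukocyte markers were higher on knockout replicate 1 and endoderm markers on knockout replicate 2; their part in these gaps was not tested.

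Other genes of the pathway came from 6 lists, to be read beside all genes tested, of which 54.4% were lower, 8.78% had an unadjusted p under 0.05 and the median difference was -0.015. The share of lower genes was 57.9% to 78.9% over the lists and was not tested. One list of 19 genes held pocket proteins, E2F factors with their partners, and subunits of the DREAM complex, which represses cell cycle genes. It also held Foxm1 and Mybl2. Of these 19 genes, 15 were lower (median -0.14). The only one under an unadjusted p of 0.05 was E2f8, a repressive E2F, at 8.15, 8.13 and 8.16 in controls and 7.62 and 7.81 in the knockout (-0.43 ± 0.068 SE, unadjusted limma p of 0.00304, adjusted p = 0.355). Lin54 (-0.21), Tfdp2 (0.18) and E2f7 (-0.25) came next. Of 15 direct regulators of Cdk activity 10 were lower (median -0.17) and 0 were under an unadjusted p of 0.05; those with the smallest p were the phosphatase Cdc25c (-0.21), Cables2 (-0.47), Cdkn3 (-0.18) and Mnat1 (0.29), the assembly factor of Cdk7.

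Among 24 genes for the degradation of cyclins and inhibitors, 17 were lower (median -0.044). The ubiquitin-conjugating enzyme Cdc34, which serves the SCF ligases, was under an unadjusted p of 0.05, at 9.17, 9.19 and 9.29 in controls and 8.51 and 8.83 in the knockout (-0.54 ± 0.12 SE, unadjusted limma p of 0.00897, adjusted p = 0.407). Cdc23 (-0.11), Ube2c (-0.25) and Cdc20 (-0.29), all of the anaphase-promoting complex pathway, did not reach it. Of 20 mitotic kinases and proliferation markers, 15 were lower (median -0.071) and 0 were under an unadjusted p of 0.05, with Kif20a (-0.15), Plk1 (-0.42), Aurka (-0.23) and Kif23 (-0.23) first by p. Of 16 tested genes around p53, 10 were lower and 6 higher (median -0.096) and 0 were under an unadjusted p of 0.05; the closest were Plk2 (0.71) and Gadd45a (0.34), both higher without overlap, then Sfn (-0.47) and Zmat3 (-0.21). Ccng1 and Cdkn1a, also known as targets of p53, differed in opposite directions in the knockout mean. Among 19 partners of the transcription Cdks, 11 were lower (median -0.045), and the TFIIH subunit Ercc3 was under an unadjusted p of 0.05 (-0.22 ± 0.063 SE, limma adjusted p = 0.497), ahead of Med13 (0.12), Ercc2 (-0.32) and Larp7 (-0.21).

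**Figure D4:**
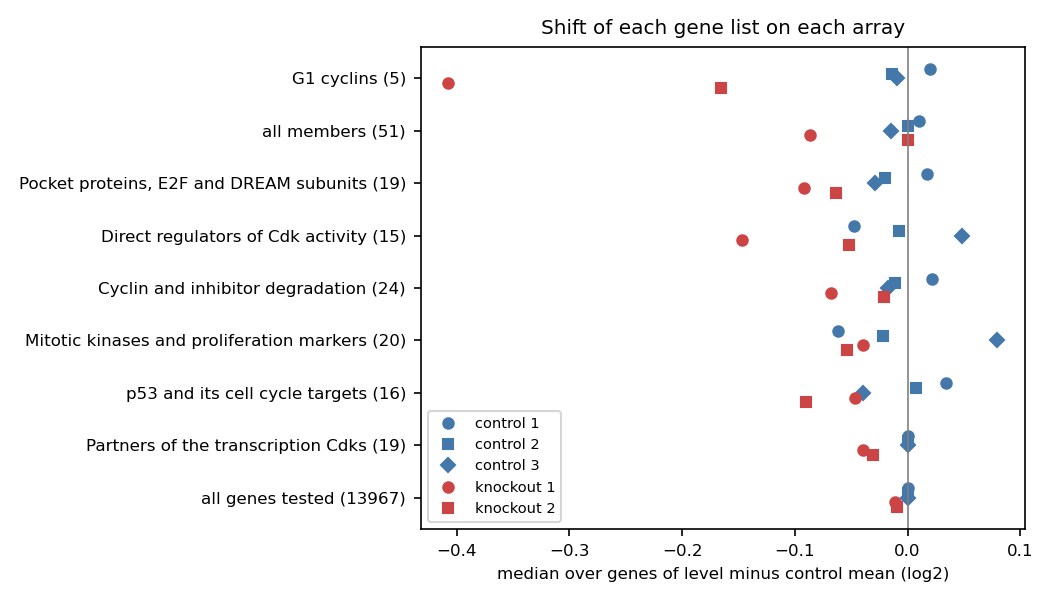
Median over the genes of a list of the level minus the control mean, on the log2 scale, for each array; numbers of genes tested are in parentheses. The G1 cyclins lie at -0.41 and -0.17 on the knockout arrays, and the lists of other pathway genes, all members and all genes lie between -0.15 and 0.080 on every array. Of the roles not drawn, the 2 cyclin Y genes lay at -0.25 and -0.19 on the knockout arrays, within their control values of 0.24, 0.030 and -0.27. The cell cycle kinases lay at -0.17 and -0.0062 (controls -0.0062 to 0). The tested F, G, I and J cyclins lay at -0.17 and 0.16 (controls -0.027 to 0.052), and the 3 tested A and B cyclins at -0.15 and -0.090 (controls -0.078 to 0.11).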

How the data were processed

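Total RNA was extracted with Trizol and 20 ng was amplified and labelled for Affymetrix arrays, per the labels' protocols. The log2 levels were deposited by the authors as 1 table; RMA in Affymetrix Expression Console is named in the submitters' processing notes, without versions or settings. Raw scanner values were not used, so background could not be judged per probe, and 5 arrays limit the precision. Probe sets without a gene symbol in the platform annotation, or with several, were left out, which kept 23281 of 24479. These gave 23279 genes after keeping the brightest set of a gene. Of them, 13967 at or above the 40th percentile of the mean level were tested. Control and knockout were compared in limma 3.58.1 (R 4.3.3; lmFit, eBayes, two-sided, Benjamini-Hochberg over all genes tested), with no covariate. The steps were tested on simulated data. With 10 possible splits, no permutation p can be under 0.1.

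Values were given in full for the members with the 6 smallest p and for the main cell cycle genes; of each pathway list up to 4 genes with the smallest p were named; other members were given by difference or range. The genes whose promoters are shown were chosen after their values were seen. The members and gene lists were chosen with earlier results of these data known. Replicate numbers follow the order of the records and pair no samples. Alternatives concerned the dim filter, the variance prior, array weights, normalization, centring, several probe sets of a gene, and leaving out each array.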

Additional observations from a re-analysis of the deposited data

How the results depend on the processing

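No paired analysis was possible because the labels give the groups no shared replicate numbers. Changing the dim filter or the variance prior left each count of members within 1.5 times its value. Averaging the probe sets of a gene, also counted among the 12 alternatives, could change no member, since each has 1 probe set. After quantile normalization again, 2 members were lower at an unadjusted p under 0.05 (3.92% against 4.85% of all genes) and 8 were higher without overlap. With array weights 1 member was higher at that p (1.96% against 2.24%), and with arrays centred on their medians 1 was (1.96% against 3.14%). Leaving out 1 array at a time gave 0 to 1011 genes passing over all genes, 3 to 11 members lower (5.88% to 21.6%, against 3.2% to 14.6% of all genes) and 1 to 9 higher (1.96% to 17.6% against 2.26% to 12.7%) at an unadjusted p under 0.05, 12 to 23 lower (23.5% to 45.1% against 16% to 33.8%) and 5 to 11 higher without overlap, and a median difference between -0.087 and 0; 9 genes passed without knockout replicate 1 and 1011 without knockout replicate 2. The dim filter was applied again in each such fit. For members higher without overlap, no share of all genes was taken in the alternatives. Those counts are therefore not a result about the members. The direction turned for Ccnd1 (0.19) and Cdk4 (0.11) without knockout replicate 1 (-0.86 and -0.23 without knockout replicate 2), for Cdk1 after quantile normalization again (0.034), and for Cdkn2d with array weights (-0.014), with centred arrays (-0.0087) and without control replicate 3 (-0.021; 0.025 without control replicate 1). The cause was not tested. With all arrays these 4 genes had adjusted p-values of 0.672 or more. Of all 51 tested members, 20 turned in at least 1 alternative, 8 of them without knockout replicate 1 (Ccnb1-ps, Ccnd1, Ccnf, Ccnh, Ccnjl, Ccnk, Cdk4 and Cdk9). Ccnf, Ccng1, Cdk4, Cdk6, Cdkn1a and Cdkn2aipnl passed over all genes without knockout replicate 2, and no member passed in the other 11 alternatives.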
